A study of Rattus norvegicus with 6 samples.

Results

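The genes described here are the transcription factors and adhesion genes by which an epithelial-mesenchymal transition (EMT) is usually recognised in tumors. They are Zeb1, Zeb2, Snai1, Snai2, Twist1, Twist2, Cdh1, Cdh2, Cdh11 and Vim, taken by symbol from the deposited table of mRNA levels. All 10 were found, each on 1 of the table's 17557 rows, which carry 17030 gene symbols. The unit is FPKM, which scales the fragments of a transcript to its length and to the mapped fragments of the library, so levels of different genes are compared per length. In these data Zeb2 alone among the 10 had lower FPKM in every digitoxin-treated tumor than in every vehicle tumor. Its group means were 1.86 FPKM with digitoxin and 5.44 FPKM with vehicle. Of the 10749 rows averaging at least 1 FPKM, 3.26% had groups apart in this direction, and no member passed the adjusted threshold. E-cadherin mRNA (Cdh1) lay at 90.9 to 135 FPKM and vimentin mRNA (Vim) at 1117 to 1975 FPKM, both high in all 6 tumors. Snai1, Twist1, Twist2 and Cdh2 had their highest values in the same pair of tumors, 1 digitoxin-treated and 1 vehicle. Of all rows averaging at least 1 FPKM, 30.1% were highest in that pair.

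Each sample is labelled as a subcutaneous primary tumor of PAIII cells, a transplantable rat prostate cancer line, grown in the flank of a Lobund-Wistar rat injected at 2 months of age. Rats A1, A6 and A12 received digitoxin, a cardiac glycoside that inhibits the sodium pump, by daily intraperitoneal injection at 0.03 mg/kg from day 10, and rats B5, B9 and B14 received vehicle. Tumors were collected on day 40. RNA came from 10 micropunches of 1 mm, taken at random through viable regions of 300 micron sections, with 1 library per rat and 3 rats per group. The rats sequenced were not a random draw. By the study's methods, treated rats were taken from those with the lowest serum IL-6 and CINC-1 and vehicle rats from those with the highest, so treatment and serum cytokine level cannot be told apart in this comparison. By the labels and methods, all tumors share the PAIII line, the host strain and the site, but the lung genes described with the libraries go against a common tissue source.

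In an epithelial-mesenchymal transition, cells of an epithelial sheet give up E-cadherin junctions and polarity and take on motility and a vimentin-rich cytoskeleton. Zinc-finger proteins of the Snail family (Snai1 and Snai2, also called Slug) and the ZEB family (Zeb1 and Zeb2) bind E-box letters at the E-cadherin gene and repress it, and the basic helix-loop-helix proteins Twist1 and Twist2 act in the same programme. N-cadherin (Cdh2) or cadherin 11 (Cdh11), the cadherins of neural and mesenchymal cells, often replace E-cadherin, which is called the cadherin switch. The same factors also mark fibroblasts, and Zeb2 is made by macrophages, so a bulk tumor library holds them from more than 1 cell type. In bulk samples, fewer cells of a type and less RNA per cell cannot be told apart.

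Windows of 250 bases ending at the RefSeq start of transcription (build GRCr8) are shown for Snai1, Twist1 and Twist2, which shared 1 pattern over the tumors, and for Zeb1, a ZEB gene whose window holds the letters its own family binds. Capitals mark CACCTG, or its reverse complement CAGGTG, the E-box letters known to be bound by Snail and ZEB proteins, searched on both strands. The windows lie at chr3:176667226-176667475 on the plus strand for Snai1, chr6:56402059-56402308 on the plus strand for Twist1, chr9:99821992-99822241 on the plus strand for Twist2 and chr17:56810654-56810903 on the minus strand for Zeb1.
Snai1: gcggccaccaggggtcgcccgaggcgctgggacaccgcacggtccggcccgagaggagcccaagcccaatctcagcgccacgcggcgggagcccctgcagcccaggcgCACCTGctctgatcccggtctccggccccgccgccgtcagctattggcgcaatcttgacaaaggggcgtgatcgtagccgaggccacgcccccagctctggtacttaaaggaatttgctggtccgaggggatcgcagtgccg
Twist1: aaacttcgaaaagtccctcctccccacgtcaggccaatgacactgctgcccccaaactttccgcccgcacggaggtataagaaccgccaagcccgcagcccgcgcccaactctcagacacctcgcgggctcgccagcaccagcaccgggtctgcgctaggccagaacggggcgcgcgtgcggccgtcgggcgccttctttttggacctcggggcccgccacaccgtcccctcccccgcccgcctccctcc
Twist2: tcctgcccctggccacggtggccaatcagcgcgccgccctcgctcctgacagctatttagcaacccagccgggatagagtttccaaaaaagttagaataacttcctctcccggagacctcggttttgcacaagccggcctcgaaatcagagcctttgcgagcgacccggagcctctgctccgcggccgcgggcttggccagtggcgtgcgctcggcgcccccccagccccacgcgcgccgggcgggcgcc
Zeb1: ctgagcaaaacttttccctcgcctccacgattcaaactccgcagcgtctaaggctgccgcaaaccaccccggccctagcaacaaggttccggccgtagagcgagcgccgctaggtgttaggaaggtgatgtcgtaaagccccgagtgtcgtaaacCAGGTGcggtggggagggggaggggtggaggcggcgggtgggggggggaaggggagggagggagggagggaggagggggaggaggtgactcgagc
RefSeq windows were matched for 6 of the 10 genes, those of Zeb2 and Vim being the others, and Snai2, Cdh1, Cdh2 and Cdh11 had no entry. The Snai1 window held the letters once, 142 bases before the start, and the Zeb1 window once, 95 bases before the start. The windows of Zeb2, Twist1, Twist2 and Vim held none. Over all 33469 rat windows of this length, 15.9% held the letters at least once. The looser E-box CANNTG, which includes those sites, occurred in the windows of Zeb1, Zeb2 and Snai1 and in 65.5% of all windows. These windows were rich in G and C, at 69.6% for Snai1, 69.2% for Twist1, 67.2% for Twist2, 65.2% for Zeb1 and 62.4% for Vim, against 47.6% for Zeb2 and a median of 51.2% over all windows. A match of letters is a description of the window, and the data hold no measurement of binding.

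The libraries did not group by treatment. A12 and B14, which are replicate 3 of their groups, stood apart from the other tumors. The summed FPKM of 11 lung alveolar epithelium markers was 42.1 in A12 and 64.4 in B14 but 28115 to 85708 in the other tumors, and 4 of these markers were listed at 0 in A12 and 5 in B14. Sftpc, the surfactant protein of alveolar cells, was at 19188 to 63514 FPKM in A1, A6, B5 and B9, while the B14 column listed it at 0 and A12 was at 0.229 FPKM. Such levels of lung mRNA go against the label of a flank tumor for A1, A6, B5 and B9, so the tissue behind every member value in those 4 libraries is in doubt. The sum of 10 fibroblast markers was 2992 in A12 and 4153 in B14 against 342 to 924 elsewhere. A6 stood apart in another way, with 8 cell cycle genes summing to 42.3 FPKM against 266 to 550 in the other tumors. The sum of 7 airway epithelium markers was 2.61 in A12 and 1.56 in B14 against 20920 or more elsewhere, and that of 10 endothelium markers 129 and 143 against 454 or more. Smooth muscle markers summed to 389 in A12 and 793 in B14 against 67.5 to 217 elsewhere, mostly from Tagln and Acta2, which fibroblasts also make. Of the 7 tested, 4 were highest in A12 and B14, against 30.1% of all tested rows. Myosin mRNA of smooth muscle (Myh11) was at 2.66 FPKM in A12 and 4.82 FPKM in B14, within the range of the other tumors. Of 5 mesothelium markers, Upk1b, Aldh1a2 and Wt1 were lowest in A12 and B14, and the summed FPKM, mostly from the epithelial keratin Krt19, was lowest in A6 at 714. The labelled tumor type was checked against its markers. The epithelial genes Epcam and Krt8 were at 208 to 525 and 398 to 2095 FPKM. Of 10 prostate epithelium markers, the secretory gene Pbsn was listed at 0 in all tumors, and only 3 reached a mean of 1 FPKM. The part of these differences in the results was not tested. For the tested members, fold changes without A12 and B14, which compare A1 and A6 with B5 and B9, stand beside those from all tumors.

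**Figure D1:**
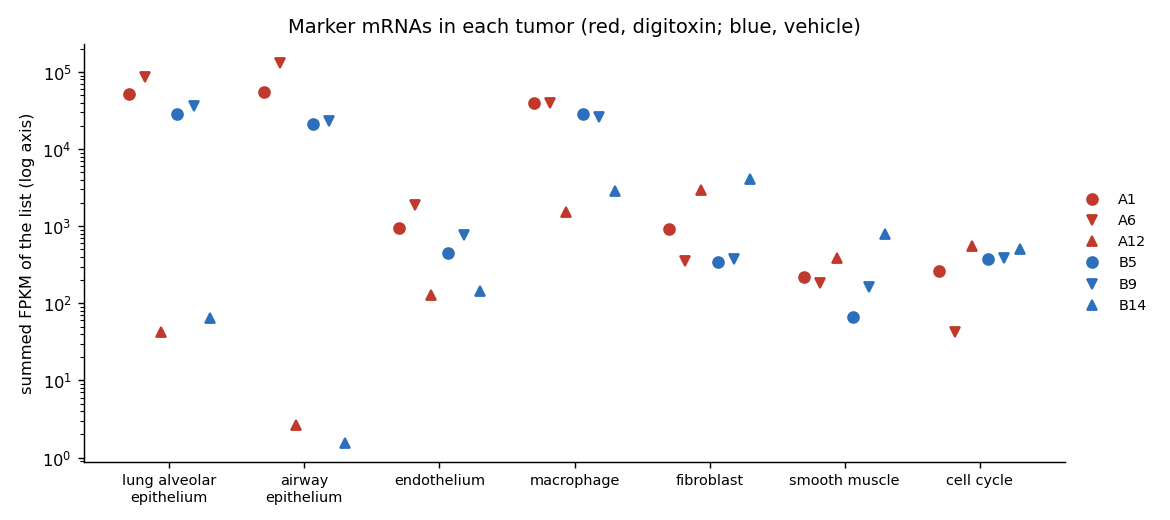
Summed FPKM of the markers of 6 cell types and of the cell cycle list, on a log axis, with 1 point per tumor (red digitoxin, blue vehicle). A12 and B14 sit far below the other tumors for lung alveolar epithelium (42.1 and 64.4 FPKM) and above them for fibroblast (2992 and 4153 FPKM).

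The levels of the members differed widely, and their order was Vim (mean over the 6 tumors 1649 FPKM), Cdh1 (108), Snai1 (20.6), Twist1 (5.16), Twist2 (4.59), Zeb2 (3.65), Cdh11 (3.22), Zeb1 (1.86), Cdh2 (1.04) and Snai2 (0.585). Vim lay above every Cdh1 value, and Cdh1 above every Snai1 value. From Snai1 downward, each gene's range over the tumors overlapped that of its neighbour in the order. Within each tumor Snai1 was the highest of the transcription factors, in 6 of 6 tumors. Differences between groups were tested with limma on log2(FPKM + 1) for the 9 members with a mean of at least 1 FPKM, in a fit of all 10749 such rows. The added 1 understates the change of low mRNAs.

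The mean log2 level was lower with digitoxin for 7 of the 9 tested members, Zeb1, Zeb2, Twist1, Twist2, Cdh1, Cdh2 and Cdh11, and higher for Snai1 and Vim. Over all tested rows 64.9% were lower with digitoxin, with a median log2 fold change of -0.16, and the members' count is to be read against that share. None of the members passed an adjusted p under 0.05 in limma, nor did any of the rows tested (0%), and the adjusted p of the members ran from 0.926 to 0.968. Zeb2 alone had an unadjusted p under 0.05, a call that 0.27% of all rows met in the lower direction (36 rows in both directions). Zeb2 was also the only member whose groups did not overlap, which held in the lower direction for 3.26% of rows. Median-of-ratios scaling moved the median of all rows by 0.18, to 0.016, and under it each tested member kept its direction. Set against the median of -0.16 before that scaling, the difference was -1.12 for Zeb2 and 0.46 for Snai1, the ends of the members' range.

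**Figure D2:**
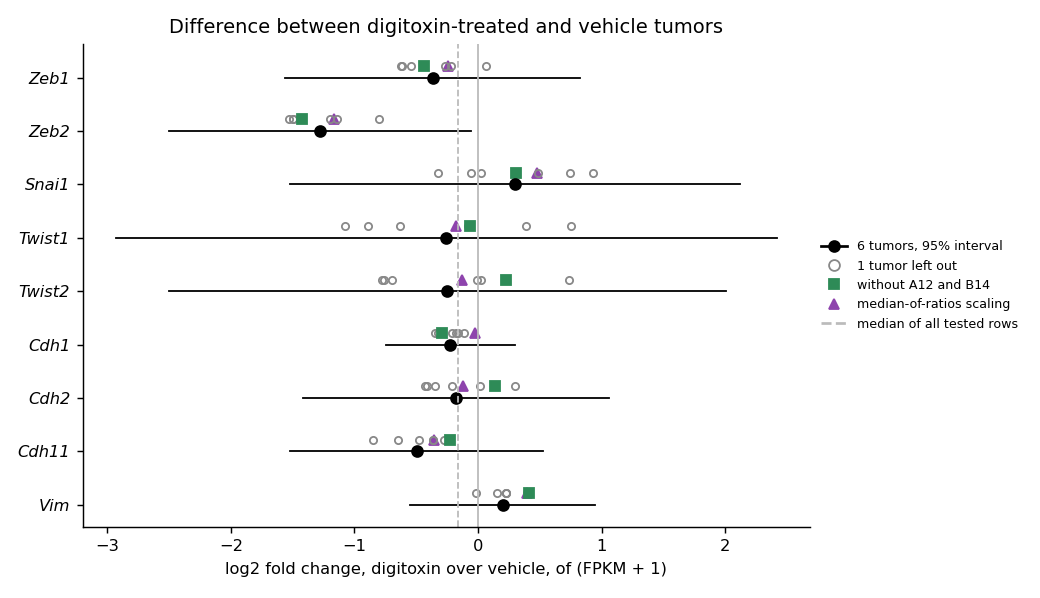
Log2 fold change of FPKM + 1, digitoxin over vehicle, for the 9 tested members, with the value from 6 tumors (black, 95% interval), from fits leaving out 1 tumor (open circles), without A12 and B14 (green) and after median-of-ratios scaling (purple). Only the interval of Zeb2 (-2.5 to -0.056) excludes 0, and the open circles of Zeb1, Snai1, Twist1, Twist2, Cdh2 and Vim fall on both sides of 0.

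Zeb2 (chr3:35063908-35185403 in the deposited table), a zinc-finger repressor of E-cadherin that is also a regulator of macrophage identity, showed the clearest separation. It was at 2.69 FPKM in A1, 0.344 FPKM in A6 and 2.53 FPKM in A12, and at 3.66 FPKM in B5, 6.65 FPKM in B9 and 6.01 FPKM in B14. All vehicle tumors were above all digitoxin-treated tumors, and A6 was far below the rest, with the highest tumor 19.3 times the lowest. The means were 1.86 ± 1.31 FPKM with digitoxin and 5.44 ± 1.57 FPKM with vehicle (SD, n = 3), a ratio of 0.341. The log2 fold change was -1.28 (SE 0.50, 95% interval -2.5 to -0.056, limma unadjusted p = 0.0429, adjusted p = 0.926), and 2.55% of all tested rows had a lower one. A6 was also the tumor with the lowest cell cycle sum, and each of the 8 cell cycle genes had a lower mean with digitoxin, against 64.9% of all rows, with a median log2 fold change of -1.21 and none past the adjusted threshold. Each of the 8 was lowest in A6, such as Top2a at 0.665 FPKM there and 29.7 to 86 FPKM elsewhere. Without A6, 7 of the 8 were lower, and the median without A6 is not given. Without A6 the value for Zeb2 was -0.80 (limma unadjusted p = 0.0784), and without A12 and B14 it was -1.42 (limma unadjusted p = 0.0572). With the replicate number as a block, a pairing that no source states, the limma unadjusted p was 0.0363 and the adjusted p 0.638. That block raised the rows with an unadjusted p under 0.05 from 36 to 446.

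Macrophage markers are set beside Zeb2, since macrophages make it. Of 9 tested macrophage genes, 6 were lower and 3 higher with digitoxin, with a median log2 fold change of -0.22 against -0.16 over all rows. Their summed FPKM, most of it from the lysozyme gene Lyz2, was 39460, 39764 and 1509 in A1, A6 and A12 and 28186, 26013 and 2845 in B5, B9 and B14, and none of them was listed at 0. Lyz2 was at 887 FPKM in A12 and 1791 FPKM in B14 against 25503 FPKM or more elsewhere, low in the same tumors as the alveolar markers. The complement genes C1qa and C1qb and the marker Cd163 were instead highest in A12 and B14, whereas 5 of the 9 were lowest there. The 3 genes higher with digitoxin were Marco (log2 fold change 0.91), Cd68 (0.19) and Lyz2 (0.035). Cd68 and Csf1r, a lysosomal protein and the receptor for macrophage growth factor, were at 85.6 and 14.8 FPKM in A12, their lowest values. C1qa and C1qb had log2 fold changes of -0.62 and -0.73 with overlapping groups. Both were lowest in A6, at 72.3 and 47.2 FPKM, against at least 128 and 110 FPKM elsewhere. The scavenger receptor Msr1 was the 1 macrophage marker whose groups did not overlap, at 18.9, 7.14 and 20.6 FPKM in A1, A6 and A12 and 27.6, 21.1 and 46.2 FPKM in B5, B9 and B14 (log2 fold change -1.03, SE 0.49, limma unadjusted p = 0.0783), against 3.26% of all rows with groups that did not overlap in this direction. The part of macrophage RNA in the Zeb2 values was not tested.

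Zeb1, the other ZEB repressor, was lower than Snai1 in every tumor and showed no separation. Its row, at chr17:52353063-52373420, spans 20357 bases, whereas the Zeb2 row spans 121495. Zeb1 was at 2.28, 0.907 and 1.03 FPKM in A1, A6 and A12 and at 1.1, 4.48 and 1.36 FPKM in B5, B9 and B14. B9 was the highest tumor and the groups overlapped. The log2 fold change was -0.37 (SE 0.49, 95% interval -1.56 to 0.83, limma adjusted p = 0.926), without B9 it was 0.067, and without A12 and B14 it was -0.44. The ZEB genes thus had different orders over the tumors. The log2 ratio of Zeb1 to Zeb2 was -0.23, 1.18 and -1.22 in A1, A6 and A12 and -1.65, -0.56 and -2.06 in B5, B9 and B14, so that Zeb1 exceeded Zeb2 in A6 alone.

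Snai1 (chr3:170425897-170430384), a direct repressor of E-cadherin, was the most abundant of the transcription factors. It was at 14 FPKM in A1, 9.49 FPKM in A6 and 44.9 FPKM in A12, and at 8.55 FPKM in B5, 9.76 FPKM in B9 and 36.7 FPKM in B14. A12 and B14 were the highest, and the remaining tumors of both groups lay together. The means were 22.8 ± 19.3 FPKM with digitoxin and 18.3 ± 15.9 FPKM with vehicle (SD, n = 3), and the log2 fold change was 0.30 (SE 0.75, 95% interval -1.52 to 2.12, limma adjusted p = 0.950). Its direction rested on single tumors, being -0.32 without A12 and -0.059 without B5. Without both A12 and B14 it was 0.31.

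Snai2 (chr11:93462644-93464954), the Snail relative known from neural crest cells, was barely present and, with a mean of 0.585 FPKM, was not tested. It was at 0.220, 0.230 and 0.230 FPKM in A1, A6 and A12, was listed at 0 in B5, and was at 0.555 FPKM in B9 and 2.28 FPKM in B14. B9 and B14 were above the treated tumors. The difference of mean log2(FPKM + 1) was -0.49, digitoxin minus vehicle, but -0.024 without B14, and the entry of 0 in B5 can be a failed estimate. Snai1 exceeded Snai2 in every tumor, by a log2 ratio of 3.91 to 7.09 after adding 0.1 to each.

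Twist1 (chr6:63023522-63025516) and Twist2 (chr9:98599200-98642827), helix-loop-helix factors of mesoderm and of fibroblasts, followed the Snai1 pattern with a wider range. Twist1 was at 1.80, 0.463 and 10.1 FPKM in A1, A6 and A12 and at 1.53, 0.772 and 16.3 FPKM in B5, B9 and B14. Twist2 was at 1.59, 1.5 and 6.35 FPKM in A1, A6 and A12 and at 1.06, 1.31 and 15.7 FPKM in B5, B9 and B14. For both genes A12 and B14 were the highest tumors and the groups overlapped. The highest tumor was 35.1 times the lowest for Twist1 and 14.9 times for Twist2. The log2 fold change of Twist1 was -0.26 (SE 1.1, 95% interval -2.93 to 2.42, limma adjusted p = 0.968). That of Twist2 was -0.25 (SE 0.93, 95% interval -2.5 to 2.0, limma adjusted p = 0.965). These intervals are wide enough to hold large differences either way. Leaving out B14 gave 0.75 for Twist1 and 0.73 for Twist2, and leaving out A12 gave -1.07 and -0.76. Without both, the values were -0.065 and 0.22. The Twist1 to Twist2 log2 ratio lay between -1.5 in A6 and 0.66 in A12, with groups that overlapped.

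**Figure D3:**
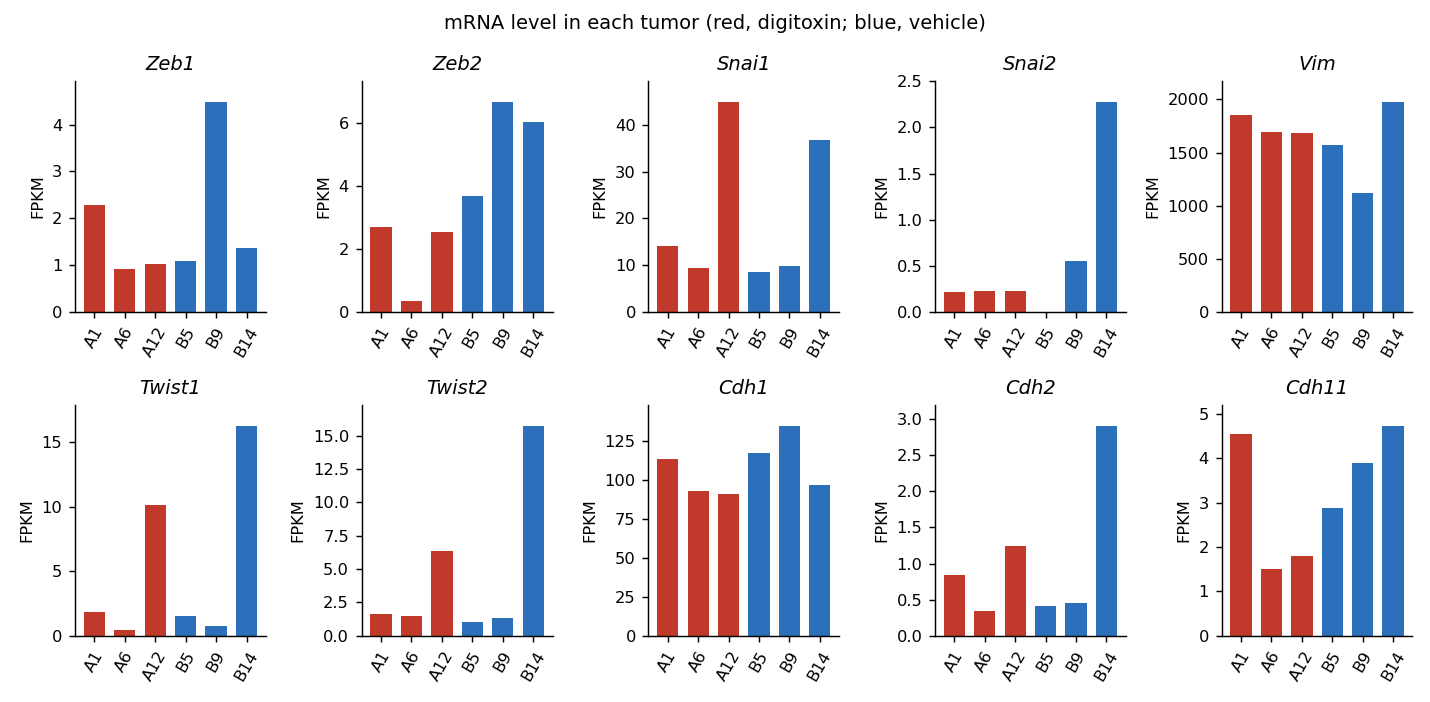
FPKM of each of the 10 members in each tumor (red digitoxin, blue vehicle), with a scale starting at 0 for each gene. Zeb2 is lower in every red bar than in every blue bar, and Snai1, Twist1, Twist2 and Cdh2 are highest in A12 and B14.

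E-cadherin mRNA (Cdh1, chr19:49635964-49705893), the adhesion molecule of epithelial junctions, was the steadiest of the members. It was at 113, 92.7 and 90.9 FPKM in A1, A6 and A12 and at 117, 135 and 96.7 FPKM in B5, B9 and B14. The highest tumor was 1.48 times the lowest, the groups overlapped, and in each tumor Cdh1 exceeded 92.6% to 95.3% of all rows. The means were 98.9 ± 12.4 FPKM with digitoxin and 116 ± 19.0 FPKM with vehicle (SD, n = 3). The log2 fold change was -0.22 (SE 0.22, 95% interval -0.75 to 0.30, limma adjusted p = 0.926), after median-of-ratios scaling it was -0.028, and without A12 and B14 it was -0.29. It was -0.11 without B9 and -0.35 without B14.

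N-cadherin mRNA (Cdh2, chr18:7997532-8218006) had the lowest mean of the tested members, though not the lowest value in every tumor. It was at 0.843, 0.348 and 1.24 FPKM in A1, A6 and A12 and at 0.416, 0.458 and 2.91 FPKM in B5, B9 and B14. As for the Twist genes, A12 and B14 were the highest and the groups overlapped. Its log2 fold change was -0.18 (SE 0.51, 95% interval -1.42 to 1.06, limma adjusted p = 0.953), and it was 0.13 without A12 and B14.

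Cadherin 11 (Cdh11, chr19:2374107-2531571), a cadherin of osteoblasts and fibroblasts, did not follow N-cadherin. It was at 4.54, 1.49 and 1.80 FPKM in A1, A6 and A12 and at 2.89, 3.89 and 4.73 FPKM in B5, B9 and B14. A1 lay among the vehicle tumors, and A6 and A12 lay below all of them. For Cdh11 the log2 fold change was -0.50 (SE 0.42, 95% interval -1.52 to 0.53, limma adjusted p = 0.926), and it was -0.85 without A1, -0.28 without A6 and -0.23 without A12 and B14.

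Vimentin mRNA (Vim, chr17:82500897-82509383), the intermediate filament of mesenchymal cells, exceeded at least 99.66% of rows in each tumor. It was at 1855, 1689 and 1684 FPKM in A1, A6 and A12 and at 1574, 1117 and 1975 FPKM in B5, B9 and B14. The treated tumors lay inside the range of the vehicle tumors, and the highest tumor was 1.77 times the lowest. The means were 1742 ± 97.4 FPKM with digitoxin and 1555 ± 429.6 FPKM with vehicle (SD, n = 3). For Vim the log2 fold change was 0.20 (SE 0.31, 95% interval -0.55 to 0.95, limma adjusted p = 0.931), without B9 it was -0.019, and without A12 and B14 it was 0.42.

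The cadherin switch was described as ratios within a tumor, with no test. Folds are plain ratios of FPKM, and log2 ratios have 0.1 added to each FPKM, which pulls those of low genes such as Cdh2 toward 0. Cdh1 exceeded Cdh2 in every tumor, by 33.2-fold in B14 to 294-fold in B9. It exceeded Cdh11 by 20.4-fold in B14 to 62.1-fold in A6. The log2 ratio of Cdh2 to Cdh1 was -6.91, -7.69 and -6.09 in A1, A6 and A12 and -7.83, -7.92 and -5.01 in B5, B9 and B14, with group means of -6.90 and -6.92. A12 and B14 again had the highest values. The difference of the means, 0.020, rested on single tumors, being 0.97 without B14, 0.42 without A6, -0.39 without A12, -0.43 without B5, -0.48 without B9 and 0.57 without A12 and B14. The log2 ratio of Cdh11 to Cdh1 had means that differed by -0.45, digitoxin minus vehicle, with overlapping groups, and by -0.051 without A12 and B14. Leaving out single tumors gave -0.82 without A1, -0.19 without A6 and -0.16 without B14. With 1 added in place of 0.1 the difference was -0.27. Vim exceeded Cdh1 by 8.30-fold in B9 to 20.4-fold in B14. The log2 ratio of Vim to Cdh1 was 4.14 ± 0.096 with digitoxin and 3.72 ± 0.65 with vehicle (SD, n = 3), the treated tumors lying close together inside the range of the vehicle tumors. The difference of 0.43 was 0.71 without A12 and B14, 0.74 without B14 and 0.093 without B9.

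**Figure D4:**
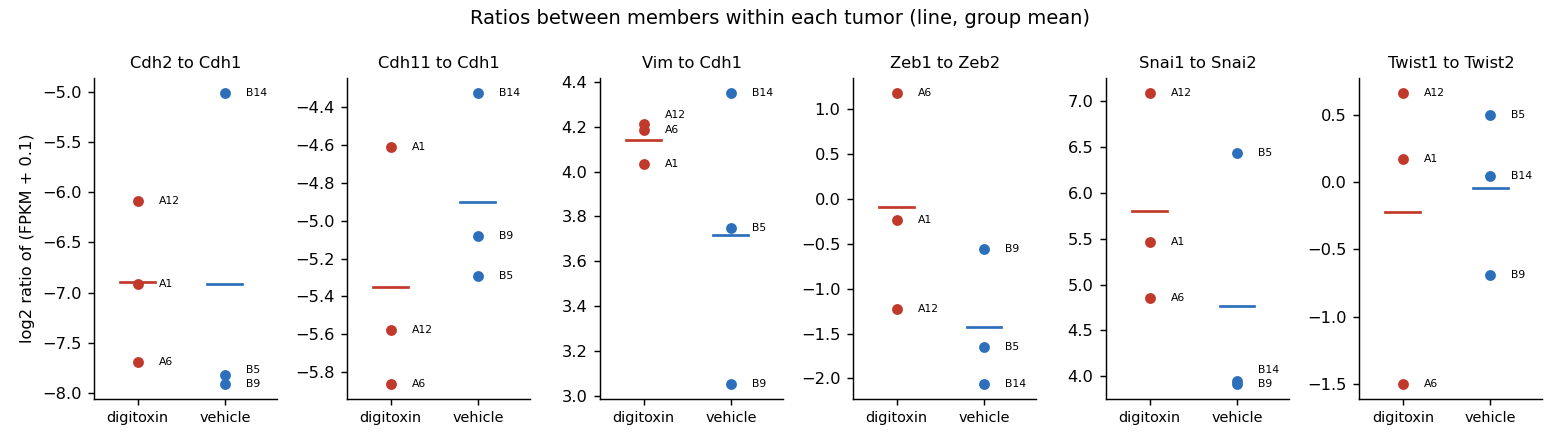
Log2 ratios between members within each tumor, after adding 0.1 FPKM, with 1 point per tumor and a line at each group mean. The groups overlap in every panel, and Cdh2 to Cdh1 is highest in B14 (-5.01) and A12 (-6.09).

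Snai1, Twist1, Twist2 and Cdh2 were the 4 tested members with A12 and B14 as their highest tumors, of 9, and 30.1% of all tested rows had this order. Fibroblast markers were among the genes that moved with them. Of 9 tested fibroblast genes, 7 were highest in A12 and B14, among them the collagen genes Col1a1 and Col3a1, the matrix proteoglycans Dcn and Lum, and the microfibril gene Mfap5. Lum was at 8.67, 6.07 and 217 FPKM in A1, A6 and A12 and at 4.85, 3.02 and 401 FPKM in B5, B9 and B14. Pdgfra, a growth factor receptor of fibroblasts, did not follow, and the matrix gene Dpt was lowest in A12 and B14, at 13.7 and 5.48 FPKM. The collagen gene Col1a2 was listed at 0 in all tumors, which can be a failed estimate. This order was not particular to fibroblast genes. It also held for 7 of 8 cell cycle genes, 10 of 21 genes of epithelial junctions and keratins and 6 of 13 epithelial-state regulators. The part of fibroblast RNA, or of RNA from other cells, in the member values was not tested.

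A12 and B14, which resembled each other in these markers, allow 1 comparison of a treated with a vehicle tumor, with no replicate and no test. Of the 9 tested members, 8 were lower in A12 than in B14, all but Snai1, against 51.3% of all tested rows, and the median log2 difference over all rows was -0.0099. The log2 difference of FPKM + 1, A12 minus B14, was -0.99 for Zeb2, -1.03 for Cdh11, -1.19 for Twist2, -0.80 for Cdh2 and -0.64 for Twist1. It was smaller for Zeb1 (-0.22), Vim (-0.23) and Cdh1 (-0.089), and it was 0.28 for Snai1. Snai2, not tested, was at -1.41. Fibroblast, smooth muscle and macrophage markers were likewise mostly lower in A12 than in B14, at 8 of 9, 7 of 7 and 8 of 9 tested genes.

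Beyond the members, no gene of the lists examined passed the adjusted threshold, and Zeb2 was the only listed gene with an unadjusted p under 0.05. The counts of lower genes in these lists are to be read against the 64.9% of all rows that were lower and their median of -0.16. Partners of the transcription factors were measured in 9 genes, the E-proteins that pair with Twist, the Id proteins that sequester them, and further factors. Of these 7 were lower and 2 higher with digitoxin, with a median log2 fold change of -0.41, and 4 were lower without A6. The E-protein gene Tcf12 had the lowest, -1.65 (SE 1.06), with 0.350 FPKM in A6 and 5.79 to 30.4 FPKM elsewhere, followed by Sox4 at -0.54. The highest were Id1, 0.97, and Id4, 0.69, and both were lowest in A12 and B14.

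Regulators that hold the epithelial state were lower in 8 of 13 genes, with a median of -0.51. The lowest were the ETS factor Ehf, -1.41, and the grainyhead factor Grhl3, -1.16, and the highest were Foxa2, 0.72, a factor of endoderm, and Ovol2, 0.36, a repressor of EMT genes. A6 was far below the rest for Ehf, at 1.86 FPKM against 15.2 to 40.4 FPKM. For Grhl3 it was at 0.269 FPKM against 1.84 to 5.97 FPKM. Genes of epithelial junctions and keratins were lower in 17 of 21, with a median of -0.46. Cldn4 and Dsc2, of tight junctions and desmosomes, were lowest at -1.88 and -1.84, and the membrane protease gene Prss8 and its inhibitor Spint2 were highest at 0.27 and 0.18. Cldn4 was at 6.69 FPKM in A6 and 80.9 to 514 FPKM in the other tumors. Without A6, 14 of these genes were lower.

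The remaining cadherins were led by a gene outside the members. Cdh17, the liver-intestine cadherin, was at 121, 1.74 and 263 FPKM in A1, A6 and A12 and at 240.3, 256 and 332 FPKM in B5, B9 and B14. It was above Cdh1 in all tumors but A6, and its log2 fold change of -2.62 (SE 1.64, limma adjusted p = 0.926) came with A6 far below the rest. Cdh6 was listed at 0 in A6 and was at 1.82 to 10.4 FPKM elsewhere, with a log2 fold change of -1.55 (SE 0.86). The endothelial cadherin Cdh5 was at -0.47, Cdh13 at -0.11 and the P-cadherin Cdh3 at 0.043 on the same scale, so 4 of the 5 tested were lower. Among the catenins, which tie cadherins to actin, and vinculin (Vcl), which joins them there, 4 of 7 were lower, with a median of -0.031. Beta-catenin mRNA (Ctnnb1) was at 408, 38.8 and 1085 FPKM in A1, A6 and A12 and at 672, 819 and 977 FPKM in B5, B9 and B14, for a log2 fold change of -1.64 (SE 1.15). A6 was again the low tumor. Ctnnd1 was at -0.74, and Jup and Arvcf, both armadillo proteins of junctions, were highest at 0.20 and 0.058.

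Mesenchymal effector genes, the collagens, proteases and contractile genes of the mesenchymal state, were lower in 11 and higher in 13 of 24, with a median of 0.023. Lox, a collagen cross-linking enzyme, was among the lowest at -0.78, and the highest were S100a4, 0.69, and Acta2, 0.56. Of the 24, 18 were highest in A12 and B14 and 22 were lower in A12 than in B14, against 30.1% and 51.3% of all tested rows. The count lower was 1 without A6 and 4 without B14, but 17 without B9, 18 without A12 and 20 without B5, so single tumors turned its direction. Genes of TGF-beta signaling, the pathway best known to induce these transcription factors, were lower in 10 of 15, with a median of -0.36. The signal transducers Smad3 and Smad4 were lowest at -1.31 and -1.01, and the pathway inhibitors Smad6 and Bambi were highest at 0.69 and 0.38. A6 was far below the rest for Smad3, at 0.361 FPKM against 5.45 to 20.3 FPKM. For Smad4 it was at 5.42 FPKM against 20.5 to 55.4 FPKM.

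The study itself groups 9 genes under EMT in its rat tumors. The sources used here do not say whether these 6 libraries alone gave that list, so its direction is not taken as independent evidence. Of its genes, 7 were lower, with a median of -0.42. Zeb2 and the TGF-beta receptor gene Tgfbr2, -1.0, were lowest, and the Wnt inhibitor Sfrp4, 0.74, and Wt1, 0.031, were highest. Without B9, 4 of the 9 were lower, and after median-of-ratios scaling 5 were. The genes lower here were not the same set that the study's text calls reduced. That text has Wt1 reduced and Aldh1a elevated, whereas the study's supplement has Aldh1a2 reduced. In the fit of all tumors Aldh1a2 was at -0.082 (SE 1.5) and Wt1 at 0.031 (SE 0.51), each change smaller than its SE.

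Each tested member was also set beside the rows whose values over the 6 tumors were most like its own, measured as the root mean square difference of log2(FPKM + 1) after centring each row on its mean, as a description. Twist1 lay nearest to Sfrp2 (0.22), a secreted Wnt modulator, and the chemokine gene Ccl7 (0.22), and Twist2 to the receptor gene Gpr176 (0.16) and the BMP antagonist gene Grem1 (0.17). Snai1 lay nearest to LOC100302465 (0.19) and to Cpe (0.20), a carboxypeptidase. Sfrp2 was at 4.35, 2.51 and 19.0 FPKM in A1, A6 and A12 and at 4.35, 3.44 and 27.4 FPKM in B5, B9 and B14, the Twist1 order in outline. Zeb2 lay nearest to Cyb5d1 (0.14) and the myosin gene Myo9a (0.17), and Zeb1 to Pan2 (0.058), a deadenylase subunit, and Phactr1 (0.11). Cdh1 lay close to Fam116a (0.043). Cdh2 lay nearest to the syndecan gene Sdc2 (0.17) and Mgarp (0.17), Cdh11 to Adap2 (0.12) and Npl (0.14), and Vim to the integrin gene Itgb5 (0.098) and the GTPase gene Rras (0.11).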

How the data were processed

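The deposited values are FPKM for 1 messenger RNA library from each of 6 rat tumors. The authors sequenced TruSeq libraries on a Genome Analyzer, called bases with CASAVA, checked reads with FastQC, mapped reads using Bowtie and TopHat, and obtained FPKM from Cufflinks. Their Cuffdiff comparison needs the reads and was not repeated. FPKM are not counts, the depth is unknown (steps between low values gave no depth, with at most 7.37% of rows at 1 ratio), and an entry of 0 is given as listed at 0. The paper's text names no genome build. The submitters' processing notes name hg19, a human build, whereas positions in the table use 20 autosomes and X and rat contig names, so positions are given as deposited and only the promoter windows carry a build. Summed FPKM ran from 651322 to 1025231.

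The test of digitoxin against vehicle was limma (version 3.58.1 under R 4.3.3, lmFit, then eBayes with a trend) on log2(FPKM + 1), two-sided, for rows averaging at least 1 FPKM, with Benjamini-Hochberg adjustment over all 10749 rows. Tables used Python 3.11.15 with pandas 2.3.3 and numpy 2.4.6, and plots matplotlib 3.10.9. On simulated data for these rows, the fit found 154 of 200 rows given a log2 change of 4, each in the simulated direction, and 13 unchanged rows. The simulated rows were drawn independently of each other, and the change was larger than that of any member. The simulation therefore gives no power or error rate for these data.

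The members, the 8 gene lists and the 9 marker lists were chosen with earlier results of these data known. Named genes are the members, all genes of lists with 5 or fewer tested, otherwise the 2 lowest and 2 highest fold changes of each list, the 2 rows nearest each member, and the 5 most abundant markers of lists that moved with a member. Cell type genes and others outside this rule were chosen with their values in view. Each replicate is a separate rat. Deviations from the group means correlated across rows at 0.426, 0.606 and 0.869 for replicates 1, 2 and 3. A1 with B9 (0.644) and A6 with B5 (0.612) correlated more highly than replicates 1 and 2, so only A12 with B14 stood out as a pair. The numbers were still taken as pairing the tumors in the blocked fit, and no source says what a number marks. The alternatives changed the scaling (median of ratios), the pseudocount (0.1), the filter (none), the eBayes trend (none) or the design (the replicate block), left out each tumor in turn or A12 and B14 together, added the alveolar marker mean as a covariate, or took ratios of group means. A12 against B14 alone was chosen after seeing the data. Some results on single genes are not reported here.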

Additional observations from a re-analysis of the deposited data

How the results depend on the processing

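Zeb2 was lower with digitoxin under all alternatives run, from -1.86 (pseudocount of 0.1) to -0.80 on the log2 scale, with an unadjusted p of 0.0288 to 0.123 and under 0.05 in 6 of 13 fits. Cdh1 and Cdh11 also kept their direction, though Cdh11 was -1.03 in A12 against B14 alone. Leaving out 1 tumor gave a range of -0.63 to 0.067 for Zeb1, -0.32 to 0.93 for Snai1, -1.07 to 0.75 for Twist1, -0.78 to 0.73 for Twist2, -0.43 to 0.30 for Cdh2, -0.35 to -0.11 for Cdh1, -0.85 to -0.28 for Cdh11 and -0.019 to 0.39 for Vim. Reversed values came without A6 (Twist1 0.39, Twist2 0.021, Cdh2 0.018), without B14 (Twist1 0.75, Twist2 0.73, Cdh2 0.30), without B9 (Zeb1 0.067, Vim -0.019), without A12 (Snai1 -0.32), without B5 (Snai1 -0.059), without both A12 and B14 (Twist2 0.22, Cdh2 0.13) and in A12 against B14 alone (Vim -0.23). Snai2, -0.49 from all tumors, was -2.06 as a ratio of group means and -1.41 in A12 against B14, but -0.024 without B14 and -0.026 without A12 and B14. The members lower with digitoxin numbered 7 of 9, 4 to 8 when 1 tumor was left out (4 without A6 or B14), and 5 without A12 and B14. No member passed the adjusted threshold in any fit. Rows past it numbered 0 to 2 when 1 tumor was left out (2 without B14), 2 without A12 and B14, and 0 otherwise. Rows with an unadjusted p under 0.05 numbered 36, and 185 with no filter, 1183 without A12 and B14, 386 with the covariate, 446 with the replicate block and 13 to 2114 when 1 tumor was left out. The block changed no member's call. Of 136 list counts 104 stayed within 1.5 times, and the 48 ratio values moved by less than the pooled within-group SD of their ratio, though Cdh2 to Cdh1, Snai1 to Snai2 and Twist1 to Twist2 changed sign under some of them. The cause of these changes was not tested. With 3 tumors per group and unknown depth, low values such as Snai2 have no known precision.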
